A study of Mus musculus with 7 samples.

Results

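The genes of programmed cell death were examined in lung regulatory T (Treg) cells that differ in the chemokine receptor CCR6. The set held 31 genes, named as a list of symbols from the BCL2 family, the caspases with their adaptors and inhibitors, the death receptors and the p53 axis, and all 31 were found among the 19736 symbols of the deposited tables. Of these, 7 are survival genes, 23 are death genes, and Cdkn1a, which arrests the cell cycle, was kept apart. RNA sequencing covered 3 libraries of CCR6+ cells and 4 of CCR6- cells. All cells came from the lungs of female mice 5 to 7 weeks old with the Il4raR576 genotype, a variant of the receptor for interleukin 4, and with the Foxp3EGFP reporter, which marks Treg cells, so the allele and the reporter were shared by both groups and neither was compared with its absence. Every mouse had been injected with 100 µg of ovalbumin (OVA), boosted 2 weeks later, exposed from day 29 to 1% OVA aerosol for 30 minutes a day over 3 days, and killed on day 32. EGFP+ cells were sorted from whole lung digests by flow cytometry and divided by CCR6. The labels do not state whether libraries came from separate mice, so p-values measure the spread between libraries, which may be technical.

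Mitochondrial apoptosis is set by a balance within the BCL2 family. Anti-apoptotic members such as BCL2, BCL-XL and MCL1 hold the pore-forming effectors BAX and BAK in check, and BH3-only proteins relieve that block. Permeable mitochondria release cytochrome c, which assembles APAF1 and caspase-9 into the apoptosome, whereas death receptors such as FAS activate caspase-8 through the adaptor FADD. In Treg cells, MCL1 and the BH3-only protein BIM are known as opposing regulators of cell number.

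The promoters of Bcl2, Cdkn1a and Fadd are shown because these are members with full statistics whose annotated start sites match between the gene models used. Each sequence holds the 250 bases before the RefSeq start on GRCm38.p6, printed along the gene's strand. Cdkn1a had 2 RefSeq starts, and its window lies before the one nearest the GENCODE gene start. The sequence before its other start was not examined, so the window may not be its main promoter. Capitals mark GC boxes (GGGCGG, or CCGCCC on the other strand), and CCAAT boxes (CCAAT or ATTGG) and TATA boxes (TATAAA or TTTATA) were searched as well; matches do not overlap.
Bcl2, chr1:106714291-106714540, minus strand: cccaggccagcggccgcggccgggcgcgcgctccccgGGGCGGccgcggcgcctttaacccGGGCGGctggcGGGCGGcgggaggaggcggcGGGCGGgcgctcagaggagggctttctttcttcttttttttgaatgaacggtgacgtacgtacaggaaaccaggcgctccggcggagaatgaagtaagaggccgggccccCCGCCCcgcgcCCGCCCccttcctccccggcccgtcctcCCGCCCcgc
Cdkn1a, chr17:29090729-29090978, plus strand: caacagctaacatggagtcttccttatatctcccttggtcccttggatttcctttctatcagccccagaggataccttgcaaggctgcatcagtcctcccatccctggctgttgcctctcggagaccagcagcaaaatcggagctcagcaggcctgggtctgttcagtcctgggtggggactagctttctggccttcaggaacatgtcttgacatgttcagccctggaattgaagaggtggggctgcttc
Fadd, chr7:144582442-144582691, minus strand: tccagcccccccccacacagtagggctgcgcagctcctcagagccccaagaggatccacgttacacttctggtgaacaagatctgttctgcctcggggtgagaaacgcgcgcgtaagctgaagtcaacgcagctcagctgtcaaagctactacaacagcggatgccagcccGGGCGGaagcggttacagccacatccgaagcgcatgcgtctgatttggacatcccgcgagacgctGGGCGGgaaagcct
The Bcl2 window held 7 GC boxes at 74.8% GC, the Fadd window 2 at 60.4% GC, and the Cdkn1a window 0 at 54% GC, against a median of 52.4% GC over 32851 promoter windows. A GC box was found in 32.7% of those windows, a CCAAT box in 33.8% and a TATA box in 12.4%; none of the 3 printed windows holds a CCAAT or a TATA box as spelled here. A match of letters is a description of the sequence and not a bound site.

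Depth ranged from 11607780 to 35182288 reads in CCR6+ libraries and from 31083571 to 47261246 in CCR6- libraries. CCR6+ replicate 2 was the shallowest and stood apart, at 254 on the first principal component against -161 to 95.5 for the others. It also carried most RNA of other lung cells: its summed epithelial markers reached 81844 normalised counts, against 4245 and 12582 in the other CCR6+ libraries and 2213 to 10565 in CCR6- libraries, and its Treg identity markers came to 84028, against 223988 and 268486 in the other CCR6+ libraries and 189271 to 193984 in CCR6- libraries. The counts of members and many of the differences are also given without this library. The sort was visible in Ccr6, at 7309, 2750.1 and 6406 normalised counts in CCR6+ libraries and 909, 851, 439 and 271 in CCR6- libraries, and Foxp3 ranged from 12206 to 50875 in CCR6+ libraries and from 19376 to 39097 in CCR6- libraries.

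No apoptosis gene passed the test between CCR6+ and CCR6- Treg cells by limma, and Bcl2 had the smallest p-value. Bcl2 was lower in all 3 CCR6+ libraries than in any CCR6- library, whereas Mcl1, Bcl2l1, Bax and the caspases Casp2, Casp6, Casp8 and Casp9 had overlapping values in the 2 groups. Tnfrsf10b, Fadd, Bik and Cdkn1a had higher means in CCR6+ cells, and the first 3 turned negative under quantile normalization. Of the 31 members, 30 passed the filter on low values (10 normalised counts in at least 3 libraries), and 0 of the 30 passed an adjusted p of 0.05 by limma on log2(value + 1) with Benjamini-Hochberg adjustment, where 0% of all 14582 genes tested did. The adjusted p of Bcl2 was 0.376 by limma. At an unadjusted p under 0.05 there were 5 members, 4 higher and 1 lower, where 10.6% of all genes reached it (8.22% higher and 2.35% lower). EdgeR called 0 members, with 0.0137% of genes called, and DESeq2 called 2, Bcl2 lower and Cdkn1a higher, with 5.03% of genes called (4.03% higher and 1.01% lower). Without CCR6+ replicate 2, DESeq2 called 1 member, Bcl2, with 1.5% of genes called (0.845% higher and 0.65% lower). Values did not overlap between groups for 5 of 30 members (16.7%), 3 higher and 2 lower, which lies near the 13.5% of all genes (7.96% higher and 5.53% lower). Without CCR6+ replicate 2 they did not overlap for 7 members, 3 higher and 4 lower, with Cycs and Fasl added, where 19.2% of all genes did not (10.5% higher and 8.62% lower). Since these are bulk samples, fewer cells of a type and less RNA per cell cannot be told apart.

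**Figure D1:**
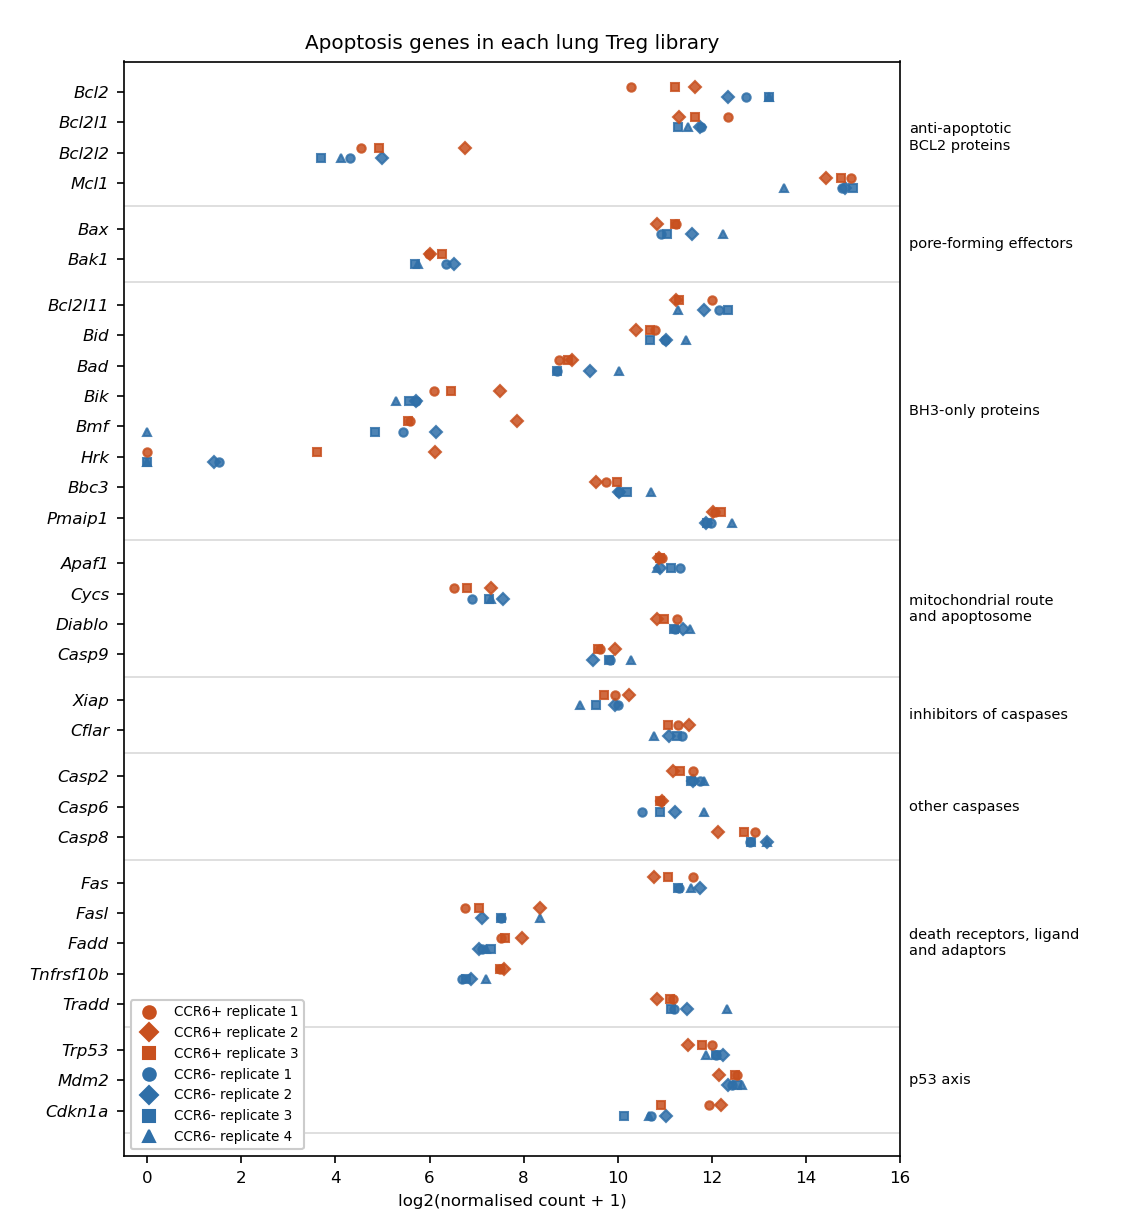
Each of the 31 genes in each of the 7 libraries, as log2(normalised count + 1) on the x axis, grouped by role down the page; orange symbols are CCR6+ libraries and blue symbols CCR6- libraries, with the replicate given by the symbol's shape. Bcl2 is the anti-apoptotic gene whose CCR6+ points all lie left of its CCR6- points, and the other 3 anti-apoptotic genes overlap.

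Bcl2, the founding anti-apoptotic protein of the family, stood at 1253, 3216 and 2363 normalised counts in CCR6+ replicates 1 to 3, against 6744, 5162, 9531 and 9457 in CCR6- replicates 1 to 4. The highest CCR6+ library lay below the lowest CCR6- library. Means were 2277 ± 985 in CCR6+ cells (SD, n = 3) and 7724 ± 2144 in CCR6- cells (SD, n = 4), a log2 difference of -1.82 (SE 0.40), or 0.283 times the CCR6- level on that scale. Without CCR6+ replicate 2 the difference was -2.12. Limma with Benjamini-Hochberg adjustment gave an adjusted p of 0.376 and edgeR 0.249, both above the threshold, whereas DESeq2 gave 0.000142 and, without CCR6+ replicate 2, 2.24e-07. Over all limma settings the adjusted p of Bcl2 ran from 0.111 to 0.749. The sign was negative in each of the settings run, from -2.15 to -1.44. Bcl2 (ENSMUSG00000057329.7) is a protein-coding gene with 2 exon blocks on the minus strand of mm10 chromosome 1, from 106538178 to 106714274. The share of its exonic bases that overlaps an antisense gene is 6.09%.

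The share of T cell RNA also differed between libraries. Per 1000 units of a pan-T cell marker list (10 genes found), Bcl2 was 5.60, 26.3 and 10.6 in CCR6+ libraries and 33.9, 23.3, 43.6 and 33.6 in CCR6- libraries. On that scale CCR6+ replicate 2 lay within the CCR6- range while the other 2 CCR6+ libraries stayed below it. That library is the one with the lowest pan-T sum, 122250, against 223796 and 223204 in the other CCR6+ libraries and 199073 to 281386 in CCR6- libraries. Its part in the values of Bcl2 was not tested.

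The other anti-apoptotic genes did not share the pattern of Bcl2 in their values. Mcl1, a short-lived protein on which many lymphocytes depend, stood at 31756, 22122 and 27548 normalised counts in CCR6+ libraries and 28012, 28932, 32634 and 11789 in CCR6- libraries, where replicate 4 was far below the rest. Its log2 difference was 0.18 (SE 0.40; limma, Benjamini-Hochberg adjusted p = 0.831) and became 0.32 without CCR6+ replicate 2 and -0.15 without CCR6- replicate 4. Bcl2l1, which encodes BCL-XL, stood at 5233, 2511 and 3187 in CCR6+ libraries and 3471, 3433, 2494 and 2864 in CCR6- libraries. Its highest value belonged to CCR6+ replicate 1, and without that library the difference of 0.19 became -0.10, and without CCR6+ replicate 2 it was 0.43. Bcl2l2, which encodes BCL-W, was low, at 22.3, 107 and 29.4 in CCR6+ libraries and 18.9, 30.7, 12.0 and 16.2 in CCR6- libraries, and its difference of 1.13 became 0.46 without CCR6+ replicate 2 and -0.79 under quantile normalization.

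Per kilobase of exon, Mcl1 was the most abundant of all 31 genes in either group, at 7941 ± 1413 normalised counts per kb in CCR6+ cells (SD, n = 3) and 7414 ± 2707 in CCR6- cells (SD, n = 4). Among the anti-apoptotic genes, Bcl2l1 came next in CCR6+ cells and Bcl2 in CCR6- cells. Bcl2l1 per kb was 1141, 548 and 695 in CCR6+ libraries, above Bcl2 per kb in the same libraries at 137, 351 and 258. In CCR6- replicates 1 to 4, Bcl2l1 per kb was 757, 749, 544 and 625 and Bcl2 per kb was 736, 564, 1041 and 1033, so the order of these neighbours differed from library to library. Bcl2l2 was the lowest of the 4, at 11.9 ± 10.5 per kb in CCR6+ cells (SD, n = 3) and 4.36 ± 1.79 in CCR6- cells (SD, n = 4).

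Ratios within a library, which do not depend on its size factor, were computed after the values had been seen and carry no test. The ratio of Bcl2l1 to Bcl2 was 4.18, 0.781 and 1.35 in CCR6+ libraries and 0.515, 0.665, 0.262 and 0.303 in CCR6- libraries. The ratio of Mcl1 to Bcl2 was 25.4, 6.88 and 11.7 in CCR6+ libraries and 4.15, 5.60, 3.42 and 1.25 in CCR6- libraries. In both ratios the groups did not overlap, with CCR6+ replicate 2 nearest to the CCR6- libraries. Bcl2 over Bcl2l11, the gene of the antagonist BIM, was 0.306, 1.33 and 0.932 in CCR6+ libraries and 1.47, 1.42, 1.84 and 3.82 in CCR6- libraries, again without overlap. Bcl2 is a term of each of these ratios and by itself did not overlap between groups. The ratios are therefore not separate from the values of Bcl2.

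**Figure D2:**
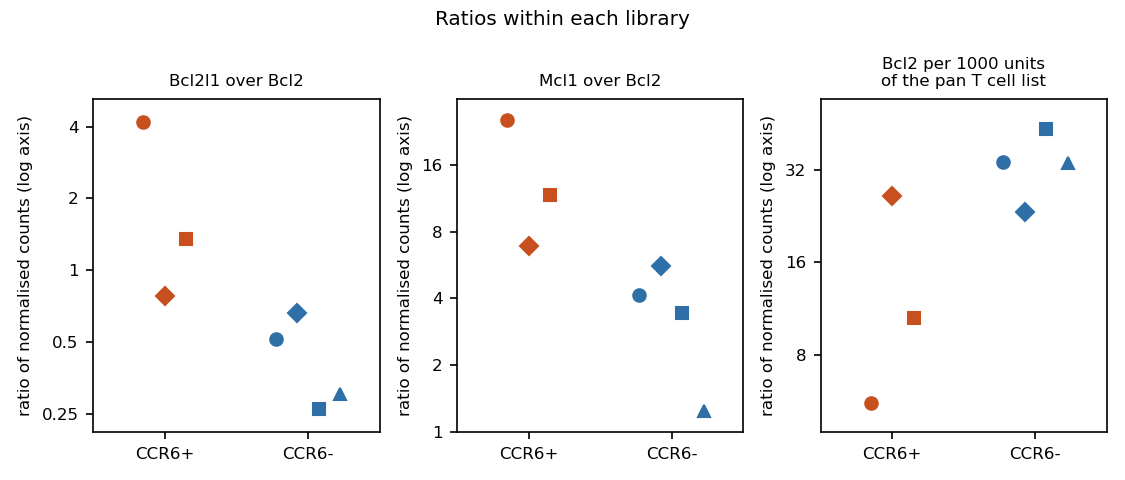
Ratio of Bcl2l1 to Bcl2, ratio of Mcl1 to Bcl2, and Bcl2 per 1000 units of the pan-T cell list in each library (y axes, log scale) for CCR6+ (left, orange) and CCR6- (right, blue) libraries; circles, diamonds, squares and triangles are replicates 1, 2, 3 and 4. The 2 ratios, which share Bcl2 as a term and are not separate from its values, separate the groups. Bcl2 per pan-T list does not, because CCR6+ replicate 2 at 26.3 lies above CCR6- replicate 2 at 23.3.

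The pore-forming effectors did not separate the groups. Bax stood at 2431, 1824 and 2396 normalised counts in CCR6+ libraries and 1928, 3059, 2109 and 4837 in CCR6- libraries, with a log2 difference of -0.34 (SE 0.36; limma, Benjamini-Hochberg adjusted p = 0.658), which became -0.21 without CCR6+ replicate 2 and -0.076 without CCR6- replicate 4. Bak1, whose product forms pores like BAX, was lower per kb, at 28.0 ± 3.11 in CCR6+ cells (SD, n = 3) and 28.5 ± 8.26 in CCR6- cells (SD, n = 4), than Bax, at 1407 ± 216 in CCR6+ cells and 1893 ± 845 in CCR6- cells. Its difference of 0.018 turned negative under 9 of the 18 other settings that kept it, quantile normalization and TMM scaling among them. For Bak1, 25.5% of the exonic bases overlap an antisense gene, and whether counting used the strand is not given in the sources used here.

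Among the 8 BH3-only genes, 7 were tested, with 3 positive and 4 negative differences. Bbc3, which encodes the p53-induced killer PUMA, stood at 863, 742 and 1007 normalised counts in CCR6+ libraries and 1036, 1035, 1177 and 1670.4 in CCR6- libraries. All CCR6+ values lay below all CCR6- values, though CCR6+ replicate 3 and CCR6- replicate 2 were close. The log2 difference was -0.48 (SE 0.24; limma, Benjamini-Hochberg adjusted p = 0.494), and per 1000 units of the pan-T list the groups overlapped, at 3.85, 6.07 and 4.51 in CCR6+ libraries and 4.67 to 5.94 in CCR6- libraries. The overlap on that scale lay in CCR6+ replicate 2, which had the lowest pan-T sum. Bbc3 (ENSMUSG00000002083.13) lies on the plus strand of mm10 chromosome 7, from 16308393 to 16318205.

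Bik, an endoplasmic-reticulum BH3-only protein, was the member of this class with higher CCR6+ values throughout, at 67.0, 179.7 and 87.3 normalised counts in CCR6+ libraries and 51.1, 51.4, 46.0 and 37.9 in CCR6- libraries. The groups did not overlap with or without CCR6+ replicate 2, which was the highest. The log2 difference was 1.12 (SE 0.36; limma, Benjamini-Hochberg adjusted p = 0.444), 0.71 without CCR6+ replicate 2 and -0.46 under quantile normalization. Bik (ENSMUSG00000016758.4) lies on the plus strand of mm10 chromosome 15, from 83526862 to 83544634.

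The less abundant BH3-only genes Bmf and Hrk were highest in CCR6+ replicate 2, the library rich in markers of other lung cells. Bmf, which senses cytoskeletal stress, stood at 47.3, 229.7 and 45.7 normalised counts in CCR6+ libraries and 42.6, 69.6, 27.6 and 0 in CCR6- libraries, so the other 2 CCR6+ libraries lay among the CCR6- ones. Its log2 difference of 2.22 became 1.46 without CCR6+ replicate 2 and 0.85 without CCR6- replicate 4. Hrk, a BH3-only gene known from neurons, was the member left out of the test, with 0, 30 and 11 reads in CCR6+ libraries and 2, 2, 0 and 0 reads in CCR6- libraries. A count of 0 allows up to 3 reads, which covers counting error only. The part of other cells' RNA in these values was not tested.

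Bcl2l11, Bid, Bad and Pmaip1 overlapped between groups. Bcl2l11, the gene of BIM, stood at 4095, 2413 and 2537 normalised counts in CCR6+ libraries and 4575, 3643, 5167 and 2475 in CCR6- libraries, with a log2 difference of -0.38 (SE 0.33; limma, Benjamini-Hochberg adjusted p = 0.610) and -0.25 without CCR6+ replicate 2. Bid, which caspase-8 cleaves to link death receptors to mitochondria, differed by -0.43, and Bad, which growth-factor signalling inactivates, by -0.31, or -0.041 without CCR6- replicate 4. Pmaip1, which encodes NOXA, an antagonist of MCL1, stood at 4309, 4185 and 4659 in CCR6+ libraries and 4064, 3769, 3830.0 and 5493 in CCR6- libraries. Its difference of 0.05 was within its SE of 0.19 and turned negative under TMM scaling.

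Genes of the mitochondrial route, caspase inhibitors and caspases overlapped between the groups over all 7 libraries. Of the 4 apoptosome genes, Apaf1, the scaffold, differed by -0.14, Casp9, the initiator, by -0.14, Diablo, which neutralises XIAP, by -0.31 and Cycs, cytochrome c, by -0.39 (-0.61 without CCR6+ replicate 2), and with all libraries 0 of the 4 separated the groups. Apaf1 was narrow, at 1973, 1883 and 1914 normalised counts in CCR6+ libraries against 2562, 1916, 2246 and 1815 in CCR6- libraries. Cycs has near-identical processed copies in the genome and 40.9% of the exonic bases of Diablo overlap other genes, so both counts are uncertain. The difference of Casp9 became -0.26 without CCR6+ replicate 2 and 0.0031 without CCR6- replicate 4.

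Xiap, which binds and blocks caspases, stood at 982, 1206 and 840.5 normalised counts in CCR6+ libraries and 1029, 980.3, 742 and 587 in CCR6- libraries. Cflar, which encodes FLIP, the decoy of caspase-8, stood at 2503, 2943 and 2143 in CCR6+ libraries and 2626, 2182, 2438 and 1755 in CCR6- libraries. Both had positive differences, 0.29 for Xiap and 0.17 for Cflar, within overlapping groups. Without CCR6+ replicate 2 they were 0.16 for Xiap and 0.058 for Cflar, and Cflar turned to -0.0087 by edgeR without CCR6+ replicate 2. Casp8, the initiator downstream of death receptors and per kb the second most abundant member, stood at 7748, 4515 and 6623 in CCR6+ libraries and 7138, 9205, 7274 and 9268 in CCR6- libraries. Its log2 difference of -0.41 (SE 0.24; limma, Benjamini-Hochberg adjusted p = 0.530) became -0.19 without CCR6+ replicate 2, the lowest library. Casp2, a stress-activated caspase, differed by -0.31 (SE 0.17; adjusted p = 0.518 by limma), and Casp6, an executioner, by -0.20, which became 0.044 without CCR6- replicate 4.

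On the death receptor side, Tnfrsf10b and Fadd were the members without overlap. Tnfrsf10b, the mouse receptor of the ligand TRAIL, stood at 180.4, 191 and 179.7 normalised counts in CCR6+ libraries and 102, 118, 109 and 146 in CCR6- libraries. All 3 CCR6+ libraries were close together and above every CCR6- library. The log2 difference was 0.64 (SE 0.18; limma, Benjamini-Hochberg adjusted p = 0.434), 0.61 without CCR6+ replicate 2, and -0.58 under quantile normalization. Per 1000 units of the pan-T list it was 0.806, 1.56 and 0.805 in CCR6+ libraries and 0.496 to 0.531 in CCR6- libraries, without overlap. That scale raises every gene in CCR6+ replicate 2, which had the lowest pan-T sum, and does not remove RNA of other cells. Tnfrsf10b (ENSMUSG00000022074.6) lies on the plus strand of mm10 chromosome 14, from 69767472 to 69784411.

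Fadd, the adaptor that joins death receptors to caspase-8, stood at 181, 248 and 195 normalised counts in CCR6+ libraries and 138, 132, 156 and 146 in CCR6- libraries. CCR6+ replicate 2 was the highest, and the other 2 CCR6+ libraries also lay above every CCR6- library. The log2 difference was 0.53 (SE 0.18; limma, Benjamini-Hochberg adjusted p = 0.449), 0.40 without CCR6+ replicate 2, and -0.55 under quantile normalization. Fadd (ENSMUSG00000031077.7) lies on the minus strand of mm10 chromosome 7, from 144577318 to 144582463, with 6.12% of its exonic bases under an antisense gene.

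The receptor Fas, which sets off apoptosis on binding its ligand, stood at 3121, 1745 and 2149.9 normalised counts in CCR6+ libraries and 2519, 3453, 2475 and 3007 in CCR6- libraries, a log2 difference of -0.32 that became -0.13 without CCR6+ replicate 2. Fasl, the ligand, stood at 107, 323 and 132 in CCR6+ libraries and 183, 138, 182 and 324 in CCR6- libraries. Its highest values, 323 and 324, were in 1 library of each group, and its difference of -0.25 became 0.070 without CCR6+ replicate 1 and -0.73 without CCR6+ replicate 2. Tradd, the adaptor of TNF receptor 1, differed by -0.49 (SE 0.33; limma, Benjamini-Hochberg adjusted p = 0.555), with CCR6- replicate 4 at 5121 and the other 6 libraries between 1833 and 2853, and by -0.23 without CCR6- replicate 4.

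In the p53 axis, Cdkn1a, which encodes the cell cycle inhibitor p21, stood apart from Trp53 and Mdm2. Cdkn1a stood at 3903, 4706 and 1933 normalised counts in CCR6+ libraries and 1663, 2081, 1125 and 1630.4 in CCR6- libraries. The groups overlapped, since CCR6+ replicate 3 lay below CCR6- replicate 2. Means were 3514 ± 1427 in CCR6+ cells (SD, n = 3) and 1625 ± 392 in CCR6- cells (SD, n = 4), a log2 difference of 1.05 (SE 0.37; limma, Benjamini-Hochberg adjusted p = 0.449). The difference became 0.79 without CCR6+ replicate 2. DESeq2 gave an adjusted p of 0.0366, which became 0.305 without CCR6+ replicate 2, and over all limma settings it ran from 0.272 to 0.810. The sign was positive in each of the settings run, from 0.79 to 1.43. Cdkn1a (ENSMUSG00000023067.14) lies on the plus strand of mm10 chromosome 17, from 29090976 to 29100727, with 7.68% of its exonic bases under an antisense gene.

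Trp53, the transcription factor that drives Cdkn1a, Bbc3 and Pmaip1 under stress, stood at 4125, 2868 and 3539 normalised counts in CCR6+ libraries and 4353, 4832, 4385 and 3762 in CCR6- libraries, a log2 difference of -0.31 (SE 0.19; limma, Benjamini-Hochberg adjusted p = 0.536) that became -0.18 without CCR6+ replicate 2. Mdm2, which degrades p53, differed by -0.09, within its SE of 0.18, and the sign turned under quantile normalization and without CCR6+ replicate 2. Cdkn1a over Trp53 was 0.946, 1.64 and 0.546 in CCR6+ libraries and 0.382, 0.431, 0.256 and 0.433 in CCR6- libraries. That ratio, chosen after the values had been seen, did not overlap between groups and carries no test. Its divisor, Trp53, had a negative difference of its own. Per 1000 units of the pan-T list Cdkn1a overlapped, at 17.4, 38.5 and 8.66 in CCR6+ libraries and 5.14 to 9.39 in CCR6- libraries.

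**Figure D3:**
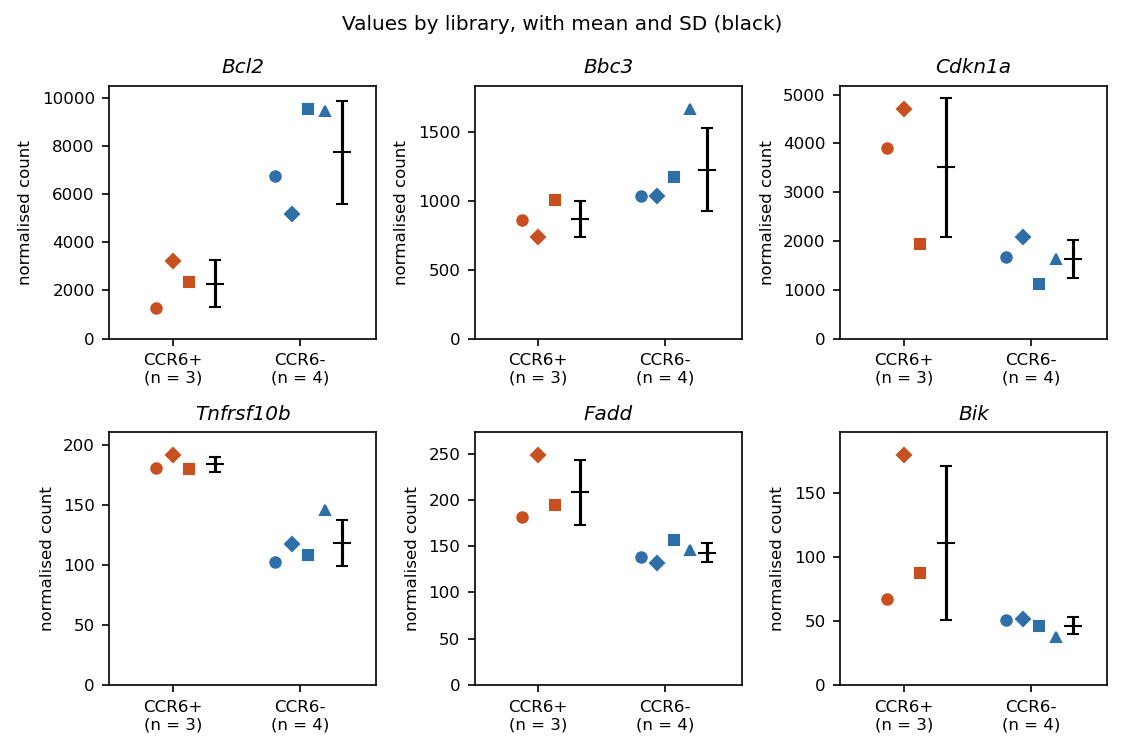
Normalised count (y axis, from 0) of the 5 genes whose groups did not overlap and of Cdkn1a in each CCR6+ (left, orange) and CCR6- (right, blue) library; circles, diamonds, squares and triangles are replicates 1, 2, 3 and 4, and black bars give the mean and SD. Bcl2 and Bbc3 are lower in all CCR6+ libraries, Tnfrsf10b, Fadd and Bik are higher, and CCR6+ replicate 3 of Cdkn1a, at 1933, lies within the CCR6- range.

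Taking survival and death genes apart, 5 of the 7 survival genes had positive and 2 negative differences, with a median log2 difference of 0.18. Of the 22 tested death genes, 6 had positive and 16 negative differences, with a median of -0.31. Over all genes tested, 56.9% were positive, 43.1% negative and the median was 0.10, and the single tested arrest gene was Cdkn1a. The death median was -0.21 without CCR6+ replicate 2, -0.15 without CCR6- replicate 4 and -0.30 under quantile normalization, which moved the median of all genes to -0.08. The survival median was 0.16 without CCR6+ replicate 2, 0.06 without CCR6- replicate 4 and 0.23 under quantile normalization. The survival gene with the greatest difference, Bcl2, ran against the sign of its own group's median. These counts and medians were not tested, and the genes were chosen with earlier results of these data known.

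**Figure D4:**
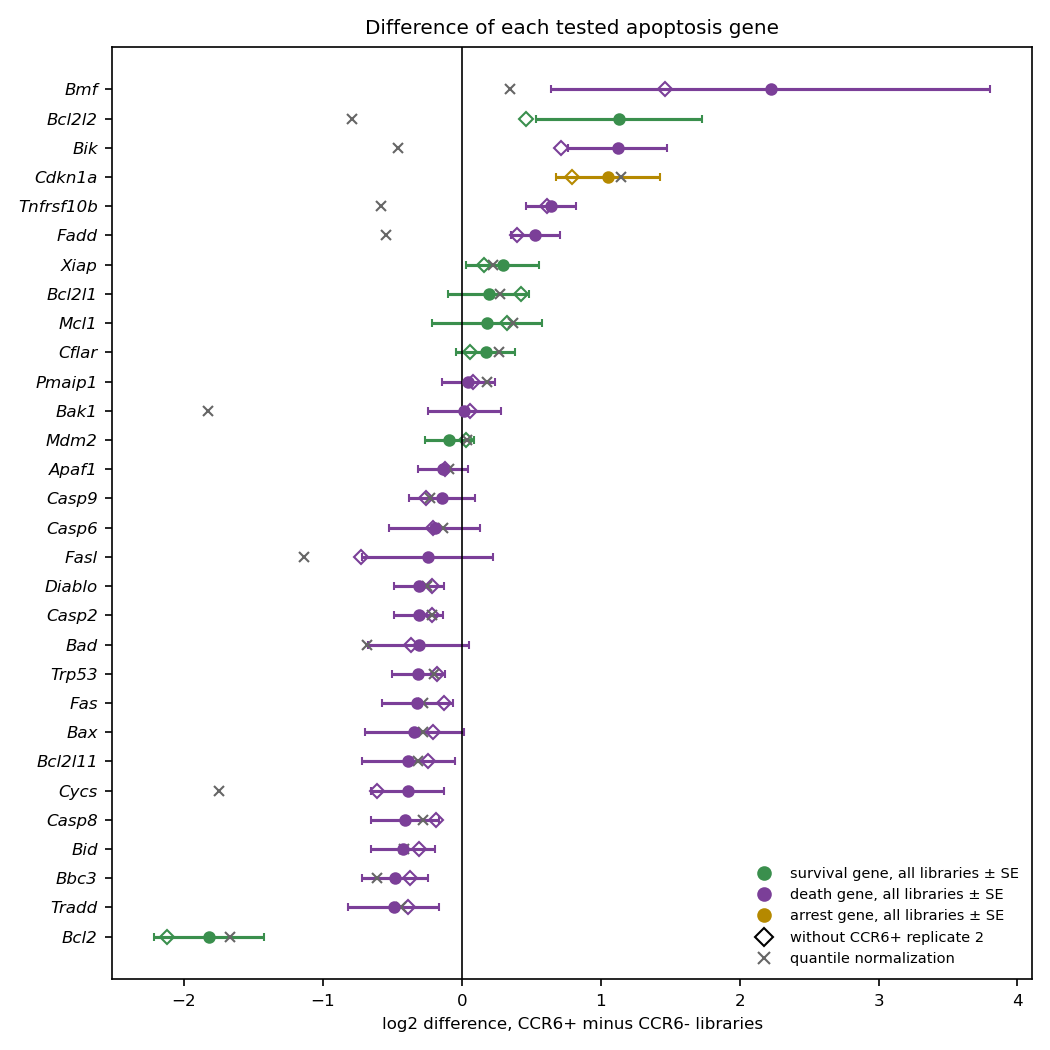
Log2 difference of CCR6+ minus CCR6- libraries (x axis) for the 30 tested genes, with filled points and SE bars from all 7 libraries, open diamonds without CCR6+ replicate 2 and crosses under quantile normalization. Survival genes are green, death genes purple and the arrest gene ochre; Bcl2 lies at the bottom at -1.82, and the crosses of Bik, Tnfrsf10b and Fadd lie left of 0.

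The members did not all vary with the same library. CCR6+ replicate 2 held the highest value of 9 of the 31 genes and the lowest of 11, and CCR6- replicate 4 held the highest of 13 and the lowest of 6. CCR6- replicate 4 was the deepest library, and its Bax, Bid, Bad, Tradd and Casp6 were the highest of all libraries while its Mcl1 was the lowest.

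Other genes of the pathway were read from 6 lists that hold 83 symbols, of which 81 were found and 78 tested. By limma 0 of the 78 passed the adjusted threshold, where 0% of all genes did. EdgeR and DESeq2 also called 0, where they called 0.0137% and 5.03% of all genes. Without CCR6+ replicate 2, DESeq2 called 1 of them, Tnfrsf25, where it called 1.5% of all genes. The 78 genes had 42 positive and 36 negative differences with a median of 0.01, and 8 (10.3%) did not overlap between groups, 5 higher and 3 lower, against 13.5% of all genes. Without CCR6+ replicate 2, 48 were positive and 30 negative (median 0.11), and 13 did not overlap, against 19.2% of all genes. In the rest of the BCL2 family, 7 of 10 tested genes were positive and 3 negative (median 0.43; -0.84 under quantile normalization), and without CCR6+ replicate 2 there were 6 positive and 4 negative (median 0.29). Bcl2l15 stood at 162, 146 and 174 normalised counts in CCR6+ libraries and 85.1, 101, 93.8 and 108 in CCR6- libraries. It did not overlap between groups, with a log2 difference of 0.72 (SE 0.16; limma, Benjamini-Hochberg adjusted p = 0.388) that became -0.72 under quantile normalization. Bok, Naip1, Trp63 and Tnfrsf21 were each highest in CCR6+ replicate 2, at 273, 369, 387 and 1335 normalised counts, where the other 6 libraries ranged over 0 to 17.0 for Bok, 0 to 33.5 for Naip1, 0 to 53.8 for Trp63 and 0 to 151 for Tnfrsf21.

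Among the inhibitor of apoptosis genes and their antagonists, 5 of 9 were positive and 4 negative (median 0.24; -0.21 under quantile normalization), and without CCR6+ replicate 2 there were 7 positive and 2 negative (median 0.13). Birc5, which encodes survivin, a protein of dividing cells, stood at 1732, 1551 and 1875 normalised counts in CCR6+ libraries and 2014, 3582, 2227 and 2759 in CCR6- libraries, without overlap, at a log2 difference of -0.59 (SE 0.24; limma, Benjamini-Hochberg adjusted p = 0.471). Among the other caspases, 4 of 5 were positive and 1 negative, with or without CCR6+ replicate 2 (median 0.41, or 0.28 without it). Casp12 was above 100 normalised counts in CCR6+ replicate 2 alone, at 680.1, with 30.9 and 55.8 in the other CCR6+ libraries and 0 to 28.5 in CCR6- libraries.

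Among the other death receptor genes, 8 of 19 were positive and 11 negative (median -0.07; 0.01 under quantile normalization). This list turned to 14 positive and 5 negative (median 0.18) without CCR6+ replicate 2. With all libraries 2 of the 19 genes did not overlap (10.5%), each higher in CCR6+ cells, against 13.5% of all genes. Without CCR6+ replicate 2, 6 of 19 did not overlap, all of them higher, against 19.2% of all genes (10.5% higher and 8.62% lower). Tnfrsf1a, TNF receptor 1, stood at 1213, 2632 and 1084 normalised counts in CCR6+ libraries and 710.3, 868, 829 and 255 in CCR6- libraries, without overlap, at a log2 difference of 1.33 (SE 0.55; limma, Benjamini-Hochberg adjusted p = 0.471) and 0.93 without CCR6+ replicate 2. Tnfsf10, the ligand TRAIL, stood at 2338, 2520.4 and 1952 in CCR6+ libraries and 1720.4, 1758, 1829.9 and 839.9 in CCR6- libraries, also without overlap, with a difference of 0.62 (SE 0.32). On the deposited scale both the TRAIL ligand and its receptor Tnfrsf10b were higher in every CCR6+ library, neither passed the test, and under quantile normalization the ligand differed by 0.67 and the receptor by -0.58.

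Among p53 targets and regulators, 15 of 24 were positive and 9 negative (median 0.05; 0.0025 under quantile normalization), and without CCR6+ replicate 2 there were 12 positive and 12 negative (median -0.019). Gadd45a, a growth arrest gene, was lower in all CCR6+ libraries, at 457, 523 and 521 normalised counts against 737, 564, 809 and 868 in CCR6- libraries (log2 difference -0.56, SE 0.20; limma, Benjamini-Hochberg adjusted p = 0.454). Ckap2, a spindle protein, was lower as well, at 736, 826 and 741 in CCR6+ libraries against 949, 1351, 977 and 1107 in CCR6- libraries. Both are p53-linked, and their differences had the opposite sign to that of Cdkn1a. Of the 24 genes, 15 (62.5%) had the sign of Cdkn1a, near the 56.9% of all genes with a positive difference. Under quantile normalization the list also had 12 positive and 12 negative differences. In this list 3 genes did not overlap (12.5%, against 13.5% of all genes), 1 higher and these 2 lower. Among nucleases and dismantling genes, 3 of 11 were positive and 8 negative (median -0.08), and 0 separated the groups. There were 5 positive and 6 negative (median -0.022) without CCR6+ replicate 2.

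Summed markers of most other cell types were highest in CCR6+ replicate 2. The sum for granulocytes and mast cells was also higher in every CCR6+ library than in any CCR6- library. The granulocyte and mast cell list, 14 genes, summed to 4721, 14106 and 4309 normalised counts in CCR6+ libraries and to 1549 to 3116 in CCR6- libraries, without overlap. Its genes of highest mean were Ccr3 and Kit. Kit did not overlap, at 630, 6349 and 1341 in CCR6+ libraries and 176 to 611 in CCR6- libraries. Ccr3 overlapped, at 3073, 628 and 2264 in CCR6+ libraries and 1299 to 2293 in CCR6- libraries. The macrophage and monocyte list, 13 genes, summed to 63584, 134895 and 15885 in CCR6+ libraries and 5883 to 42729 in CCR6- libraries, and the dendritic cell list, 12 genes, to 31248, 115453 and 13060 in CCR6+ libraries and 5087 to 16704 in CCR6- libraries. The endothelial and stromal list, 12 genes, summed to 6335, 62536 and 9950 in CCR6+ libraries and 5549 to 8521 in CCR6- libraries. B cell markers, 9 genes found, were 6169, 6237 and 1441 in CCR6+ libraries and 554 to 3914 in CCR6- libraries, and CD8, NK and innate lymphoid markers, 10 genes found, were 2778, 5013 and 2864 in CCR6+ libraries and 3390 to 5232 in CCR6- libraries. Among the 12 epithelial genes, 1 was at 0 in CCR6- replicate 4, and no marker list had a gene at 0 in every library. The part of these cells in the values of Tnfrsf10b, Fadd, Bik, Cdkn1a and Tnfrsf1a was not tested. In CCR6+ replicate 1 the epithelial, macrophage and monocyte, dendritic cell, B cell, and granulocyte and mast cell sums lay above the CCR6- range. Its endothelial and stromal sum lay within that range, and its CD8, NK and innate lymphoid sum below it. In CCR6+ replicate 3 the epithelial, macrophage and monocyte, dendritic cell and B cell sums lay within the CCR6- range, the endothelial and stromal and the granulocyte and mast cell sums above it, and the CD8, NK and innate lymphoid sum below it. Leaving out CCR6+ replicate 2 therefore does not leave out every raised sum of other cell types.

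**Figure D5:**
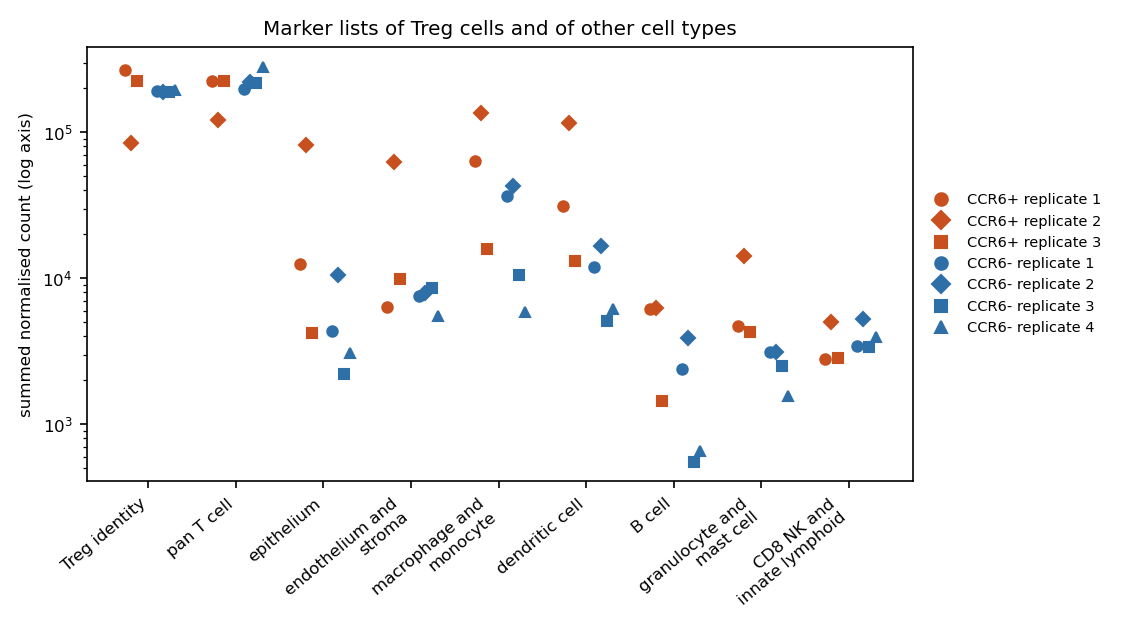
Summed normalised count of each marker list (y axis, log scale) in each library, with CCR6+ libraries in orange to the left of CCR6- libraries in blue and the replicate given by shape. CCR6+ replicate 2 has the lowest Treg identity and pan-T sums, 84028 and 122250, and the highest epithelial sum, 81844.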

How the data were processed

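The authors deposited a signal for each symbol, in which reads were scaled by 1 size factor a library; this is read from the values, 100% of which are whole multiples of 1 step per library within 0.001 reads. The submitters' processing notes list DESeq2 1.6.3, HTSeq 0.6.1p1, STAR 2.5.1b and build mm10, and nothing used here gives the annotation or the use of strand. Libraries were made from sorted cells with SMART-Seq v4 cDNA, per the labels' protocols.

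Genes reaching a value of 10 in 3 or more libraries (14582) were tested two-sided with limma 3.58.1 (R 4.3.3) on log2(value + 1), without covariates and with Benjamini-Hochberg adjustment over all of them at 0.05. Differences are CCR6+ minus CCR6- on that scale, which can understate or overstate changes of low genes. For Bmf, at 0 in CCR6- replicate 4, limma gave 2.22, edgeR 1.48 and DESeq2 1.61. On whole reads recovered by dividing by the step, edgeR 4.0.16 and DESeq2 1.42.0 were alternatives. Others were pseudocounts of 0.5 and 8, no filter, a mean of at least 100, TMM, quantile normalization, robust limma-trend, a replicate block, and each library left out. Libraries of a group differed by more than read sampling, with a chi-square per degree of freedom of 26.8 to 249. Gene positions and exonic lengths are from GENCODE release 21 (mm10), promoters from RefSeq (GRCm38.p6), where 2 of 6 members searched (Bik and Tnfrsf10b) had no entry and the starts of Bbc3 lay over 100 bases from the GENCODE start.

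Members, lists and tests were chosen with earlier results of these data known. All members are named. Full statistics are given for members past the threshold, without overlap or of lowest p in a role, and for the other lists up to 4 genes of smallest p were eligible; some of these are not reported here. Casp14, Gsdme and 6 marker symbols were not analysed here. The tests were also run on simulated counts in which every gene had the same spread between libraries and no library stood apart. These data differ from that setting, so the simulated run does not show how the tests perform on them.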

Additional observations from a re-analysis of the deposited data

Results flagged for a closer look

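In 4 of the 66 sets of 4 CCR6- values examined, 1 library lay so far from the other 3 that its gap, divided by the whole range, exceeded Dixon's 95% critical value for 4 values. Chance alone marks about 5% of such sets, and CCR6+ cells, with 3 libraries, were not examined. Pmaip1, the gene of NOXA, was 5493 normalised counts in CCR6- replicate 4, against 3769 to 4064 in the other CCR6- libraries. Bcl2l12 was 406.1 in CCR6- replicate 4, against 194.8 to 223.5 in the others. Casp1 was 956.2 in CCR6- replicate 2, against 542.8 to 610.0 in the others. Tnfsf10, the ligand TRAIL, was 839.9 in CCR6- replicate 4, against 1720.4 to 1829.9 in the others.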

How the results depend on the processing

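Of the 30 tested members, 17 kept their sign in every other setting that tested them and 13 turned in at least 1; there were 19 such settings, or 18 for Bak1, Bcl2l2, Bik and Bmf, which a mean of at least 100 left out. Quantile normalization gave -1.83 for Bak1, -0.79 for Bcl2l2, -0.46 for Bik, -0.55 for Fadd, -0.58 for Tnfrsf10b and 0.040 for Mdm2; it moved the median of all genes to -0.08, no filter to 0.42 and TMM scaling to 0.02, against 0.10. TMM scaling gave -0.054 for Bak1 and -0.025 for Pmaip1, edgeR -0.10 for Bak1 and -0.047 for Pmaip1, and DESeq2 -0.027 for Bak1. Without CCR6+ replicate 2, edgeR gave -0.0345 for Bak1 and -0.0087 for Cflar, and DESeq2 0.0405 for Mdm2. With single libraries left out, Bak1 ranged from -0.11 to 0.16, Bcl2l1 from -0.10 to 0.43, Mcl1 from -0.15 to 0.32, Casp6 from -0.40 to 0.044, Casp9 from -0.27 to 0.0031, Fasl from -0.73 to 0.070, Mdm2 from -0.16 to 0.033 and Pmaip1 from -0.0083 to 0.17. The labels do not state whether same-numbered libraries were paired. Deviations of same-numbered libraries correlated at -0.13, -0.11 and 0.34, and 1 of 6 libraries correlated best with its own number. So few correlations cannot decide whether the samples were paired. The replicate block, which leaves out CCR6- replicate 4 as it has no partner, called 0 members and 0 genes and gave a death gene median of -0.15, with Bak1 at -0.09, Mcl1 at -0.15, Casp6 at 0.044 and Casp9 at 0.0031; these values equal those without CCR6- replicate 4 and no block. Over all genes, 0 were called by limma and 1540 had an unadjusted p under 0.05; 1 was called with a pseudocount of 0.5 or TMM scaling, 2 with a pseudocount of 8, a mean of at least 100, or edgeR with or without CCR6+ replicate 2, 4 under quantile normalization, 10 by robust limma-trend, and 0 to 1 with a library left out. DESeq2 called 679 genes and 2 members, and, as added after seeing the data, 184 genes, 1 member and 1 other pathway gene without CCR6+ replicate 2. The death gene median ranged from -0.30 to -0.15 with single libraries left out. The cause of these changes was not tested. Depth limits Hrk, Bmf and Bcl2l2 most, since 1 read is worth 2.27 units in CCR6+ replicate 2 and 0.677 in CCR6- replicate 4.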
